A study of Mus musculus with 11 samples.

Results

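Pyruvate dehydrogenase is the mitochondrial enzyme complex that turns pyruvate into acetyl-CoA and so commits carbon from glucose and lactate to oxidation. Pyruvate dehydrogenase kinases phosphorylate its alpha subunit and switch the complex off, and pyruvate dehydrogenase phosphatases remove the phosphate and switch it back on. Among the kinases, Pdk4 is the one best known for changing at the level of its transcript, and in liver and muscle it is known to rise in fasting, through FOXO factors, PPARs and the glucocorticoid receptor, and to fall with insulin. The 8 genes described here are the kinases Pdk1, Pdk2, Pdk3 and Pdk4, the phosphatase catalytic subunit Pdp1, and the complex subunits Pdha1, Pdhb and Dlat. They were taken by symbol from a table of 46202 rows. All 8 had a value in every library and were among the 27721 rows kept for testing after the 40% with the lowest mean were left out.

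RNA was measured by sequencing in the hippocampus of male mice of strain C3-C57B1/6J, 2 to 3 months old, dosed through the nose with saline, or with insulin at 2.4 IU in each nare. The groups were saline (3 libraries), insulin for 15 min (2 libraries, replicates 1 and 3), insulin for 1 h (3) and insulin for 6 h (3), and brains of every group were taken under isoflurane. The saline libraries carry a time label of 0 min and a treatment label of untreated, so no saline library is matched in time to the insulin libraries. Whether each library is 1 animal is not stated, so the spread behind each p-value is that between libraries and may be partly technical. In whole tissue, fewer cells of a type and less RNA per cell cannot be told apart.

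Values are the deposited log signals. Their base, taken as 2, is inferred, and the fold changes rest on it. No length scaling is known, so levels were compared between groups for 1 gene and never between genes. Libraries held a value for 32037 to 33653 genes, and depth is unknown. That count was at most 32640 in each library of 15 min or 1 h. In each library of 6 h or saline it was at least 32703. The S numbers in the column labels ran by group. Saline held S1 to S3 and 6 h held S4 to S6. The 15 min group held S7 and S9, and the 1 h group S10 to S12. Group thus cannot be separated from the order of these numbers. The part of that order, or of genes with a value, in the Pdk4 differences was not tested. The median change over all genes was -0.14 log2 at 15 min, -0.11 at 1 h and -0.04 at 6 h against saline. The 18S ribosomal row Rn18s-rs5 ran from 9.67 to 10.49 log2 at 15 min and from 10.18 to 10.51 at 1 h. It ran from 11.04 to 12.19 at 6 h and was 13.05 or more in each saline library. All libraries of 15 min and 1 h thus lay below all others in this row. The within-group deviations of the 8 genes correlated with those of Rn18s-rs5 at r = -0.28 to 0.33 over 11 libraries, and at -0.19 for Pdk4. Such deviations leave out the differences between groups, so these r values cannot bear on those differences. Replicate 2 of the 6 h group stood apart: it held the lowest or the highest of the 11 values in 38.3% of 25771 genes, against 11.7% to 25.1% in the other libraries. The members' changes at 6 h are therefore given with and without it, and other 6 h values include it. Without it the median change over all genes at 6 h was 0.0056 log2.

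Pdk4, the only member called in the comparisons, spans chr6:5483351-5496278 on the minus strand, in 11 exons of its transcript, and overlaps no other annotated gene. Its proximal promoter, the 250 bases before the RefSeq start on GRCm38.p6 (chr6:5496279-5496528, minus strand), is shown with that of Pdk2 (chr11:95041372-95041621, minus strand), a kinase whose signal did not pass the test at any time, because the pair differ in the motifs they hold. Capitals mark matches to a CCAAT box (CCAAT, read as ATTGG on the other strand) and to an E-box (CACGTG).

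Pdk4: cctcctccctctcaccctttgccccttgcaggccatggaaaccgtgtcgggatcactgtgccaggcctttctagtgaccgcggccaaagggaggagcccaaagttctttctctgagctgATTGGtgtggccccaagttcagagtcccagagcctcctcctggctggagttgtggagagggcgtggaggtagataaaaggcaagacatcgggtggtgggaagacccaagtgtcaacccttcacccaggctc

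Pdk2: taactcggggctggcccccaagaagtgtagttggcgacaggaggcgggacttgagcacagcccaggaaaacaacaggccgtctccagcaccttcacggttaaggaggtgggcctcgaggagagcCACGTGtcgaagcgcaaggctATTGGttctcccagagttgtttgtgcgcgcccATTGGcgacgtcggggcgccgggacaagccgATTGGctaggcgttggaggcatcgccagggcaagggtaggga

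Motifs were searched on both strands in these 250 bases. The Pdk4 window held 1 match, a CCAAT box on the opposite strand 131 to 127 bases upstream of the start, and the Pdk2 window held 3 CCAAT boxes and 1 E-box 126 to 121 bases upstream. None of the windows of the 7 members listed in the RefSeq promoter table held the FOXO motif TGTTTAC or the nuclear receptor half-site AGGTCA. The glucocorticoid receptor half-site TGTTCT occurred in a second Pdk1 window and in no other. Among 32851 promoter windows of the same length, 33.8% held a CCAAT box, 6.02% the E-box, 3.17% the FOXO motif, 14.02% the nuclear receptor half-site and 16.1% the glucocorticoid half-site. Pdhb held 3 CCAAT boxes and Pdk3 held 1, whereas Dlat, Pdha1 and the first Pdk1 window held none of the motifs searched. The Pdk4 window also held fewer CpG dinucleotides, 6, than the first window of each other member (15 to 29), at a GC content of 58.8% against 61.6% to 67.6%. The median over all windows was 6 CpG and 52.4% GC. A match is only a match of letters, and a missing one says nothing of a factor's binding.

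The question put to the members was whether the transcripts that set the activity of pyruvate dehydrogenase changed after insulin, and when. Pdk4 rose at 15 min and at 1 h, and at 6 h its values overlapped those with saline. It was 1 of 8 members called at 15 min, where 0.239% of all genes tested were called (0.0434% higher and 0.195% lower), and 1 of 8 at 1 h, where 0.877% were (0.13% higher and 0.747% lower). Rises made up 18.2% of the calls at 15 min and 14.8% at 1 h, against 37.8% and 32.0% with cyclic loess and 43.5% and 46.8% with library medians over shared genes made equal. Both times were set against the same 3 saline libraries. At 6 h no member was called against saline by limma, nor any of 27707 genes tested, of which 1934 had an unadjusted p under 0.05, none of them a member (1450 of 27677 genes without 6 h replicate 2). No member was called lower in any comparison.

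Pdk4 had log2 signals of -1.44, -1.49 and -1.16 in the saline libraries, and of -0.17 and -0.02 in the 15 min libraries. At 1 h it had -0.32, -0.17 and -0.04. At 6 h it had -1.28, -1.40 and -0.88. The 5 libraries of the earlier times all lay above the other 6. These sets were also apart in S number and in genes with a value. How many of all genes divided the libraries into these sets was not counted. Within each set the groups overlapped. Ordered by their means, 15 min stood highest at -0.09 ± 0.11 log2 (SD, n = 2), followed by 1 h at -0.18 ± 0.14, 6 h at -1.19 ± 0.27 and saline at -1.36 ± 0.18 (SD, n = 3 each).

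Against saline, Pdk4 was higher by 1.27 log2 at 15 min (SE 0.17, 95% interval 0.90 to 1.64), which is 2.41-fold, with an adjusted p of 0.020 by limma. Its p ranked 22 among all genes tested and 5 among those that rose. At 1 h it was higher by 1.18 log2 (SE 0.15, 95% interval 0.85 to 1.52), or 2.27-fold, with an adjusted p of 0.0087 by limma and rank 4 among rises. The 1 h call held in every alternative tried, while the 15 min call rested on few libraries: it was lost without 15 min replicate 1 (adjusted p = 0.088), 15 min replicate 3 (0.19), saline replicate 1 (0.10) or saline replicate 2 (0.082). It was also lost when only the 15 min and saline libraries were fitted (adjusted p = 0.089) and without the rows that move with Rn18s-rs5 (0.052). In all of these the log2 change stayed between 1.20 and 1.35.

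**Figure D1:**
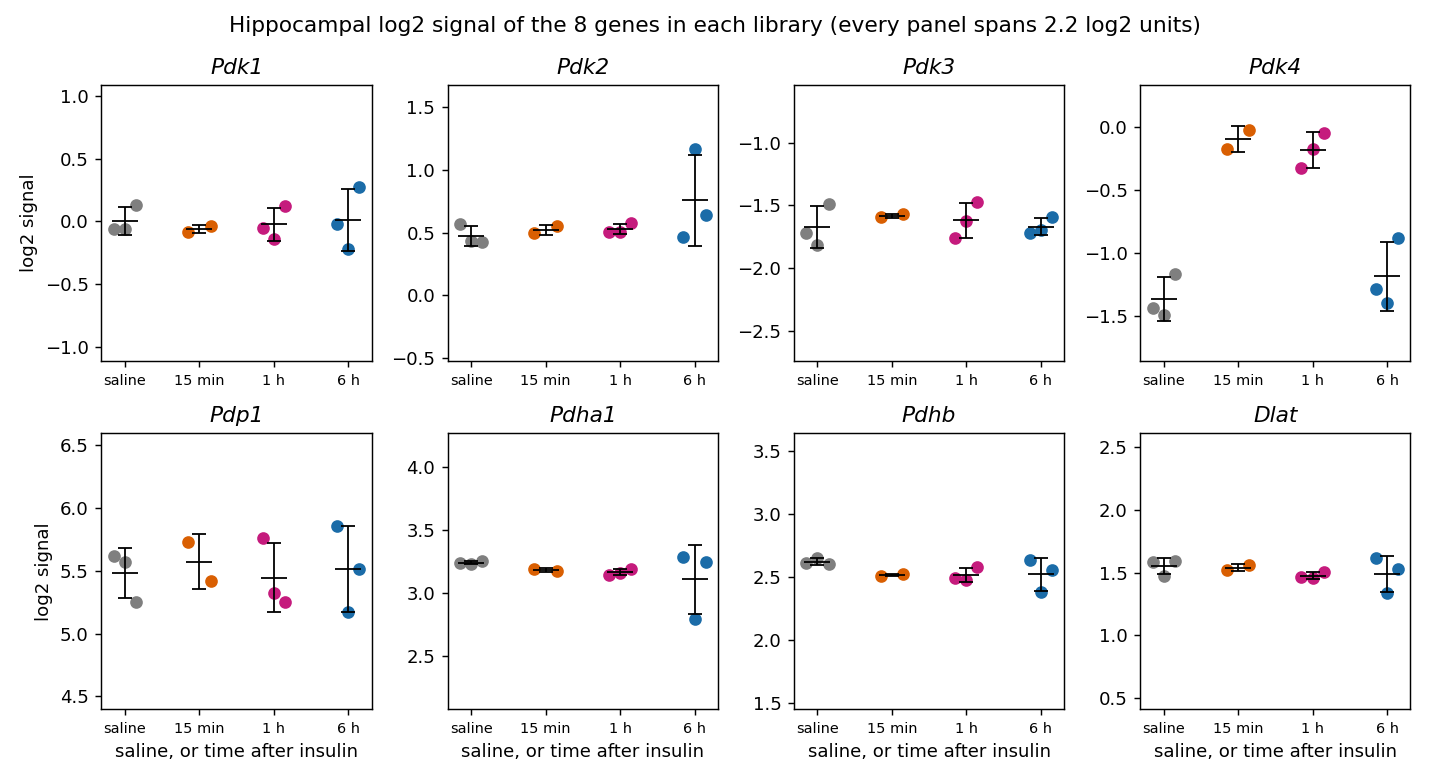
Log2 signal (y axis) of each of the 8 genes in each library (points), by group along the x axis, with the group mean and SD as bars. Every panel spans the same log2 range, so differences between groups within a gene are drawn to 1 scale. The Pdk4 points at 15 min and 1 h stand above those of saline and 6 h. The high Pdk2 point and the low Pdha1 point at 6 h are both replicate 2.

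The 15 min and 1 h levels of Pdk4 were close. The 1 h mean was 0.09 log2 below the 15 min mean, with a 95% interval of -0.46 to 0.28 (adjusted p = 1.00 by limma), which allows anything between 0.729 and 1.22 times the 15 min signal. At 6 h Pdk4 was 0.18 log2 above saline (95% interval -0.15 to 0.51, adjusted p = 0.77 by limma), and without 6 h replicate 2 it was 0.28 above. That interval reaches up to 1.42-fold, below the lower bounds at 15 min (1.87-fold) and 1 h (1.81-fold).

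The loss of the early difference was tested directly by setting 6 h against the earlier insulin times. All 3 libraries of 6 h lay below both libraries of 15 min and all 3 of 1 h. The 6 h signal was 0.469 times that of 15 min, a log2 difference of -1.09 (95% interval -1.46 to -0.72, unadjusted p = 6.2e-05, adjusted p = 0.11 by limma). Against 1 h it was 0.498 times as high, a log2 difference of -1.005 (95% interval -1.34 to -0.67, unadjusted p = 4.9e-05, adjusted p = 0.13 by limma). Without 6 h replicate 2 the differences were -0.99 and -0.90. Neither passed the threshold over all genes, where 0.00723% were called against 15 min and 0.0108% against 1 h. Groups without overlap and with 6 h lower made up 7.08% of genes against 15 min and 3.17% against 1 h. With library medians over shared genes made equal, the 6 h to 1 h difference was called (-1.11 log2, adjusted p = 0.039 by limma). With all 8 insulin libraries pooled against saline, where 0.119% of genes were called, Pdk4 was 0.83 log2 higher (adjusted p = 0.32 by limma).

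The other kinases did not pass the test in any comparison. Pdk1, a kinase also known as a target of hypoxia signalling, averaged 0.00 ± 0.11 log2 with saline, -0.06 ± 0.03 at 15 min, -0.02 ± 0.13 at 1 h and 0.01 ± 0.25 at 6 h (SD, n = 2 at 15 min and 3 otherwise). Its 95% interval for the change at 15 min ran from -0.37 to 0.25, which allows 0.771 to 1.19 times the saline signal. Pdk3, the kinase gene on the X chromosome, averaged -1.67 ± 0.17 log2 with saline, -1.58 ± 0.01 at 15 min, -1.62 ± 0.14 at 1 h and -1.67 ± 0.07 at 6 h. All Pdk1 and Pdk3 groups overlapped saline.

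Pdk2, the most widely expressed of these kinases, had log2 signals of 0.57, 0.43 and 0.42 with saline, 0.49 and 0.55 at 15 min and 0.50, 0.51 and 0.58 at 1 h. At 6 h it had 0.47, 1.16 and 0.64. One library set that group apart: replicate 2, at 1.16, exceeded the 0.64 that was highest among the other 10. The 6 h mean was 0.28 log2 above saline (95% interval -0.04 to 0.61, adjusted p = 0.72 by limma), and 0.08 above without replicate 2. The annotated gene Gm11513 overlaps Pdk2 and had a value in 5 of 11 libraries, none above -8.03 log2.

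At 15 min the lower bound of the Pdk4 interval, 0.90 log2, lay above the upper bound of every other member, of which the highest was 0.57 for Pdp1. At 1 h the bounds were 0.85 for Pdk4 and 0.39 for Pdp1. The difference between genes was not itself tested.

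**Figure D2:**
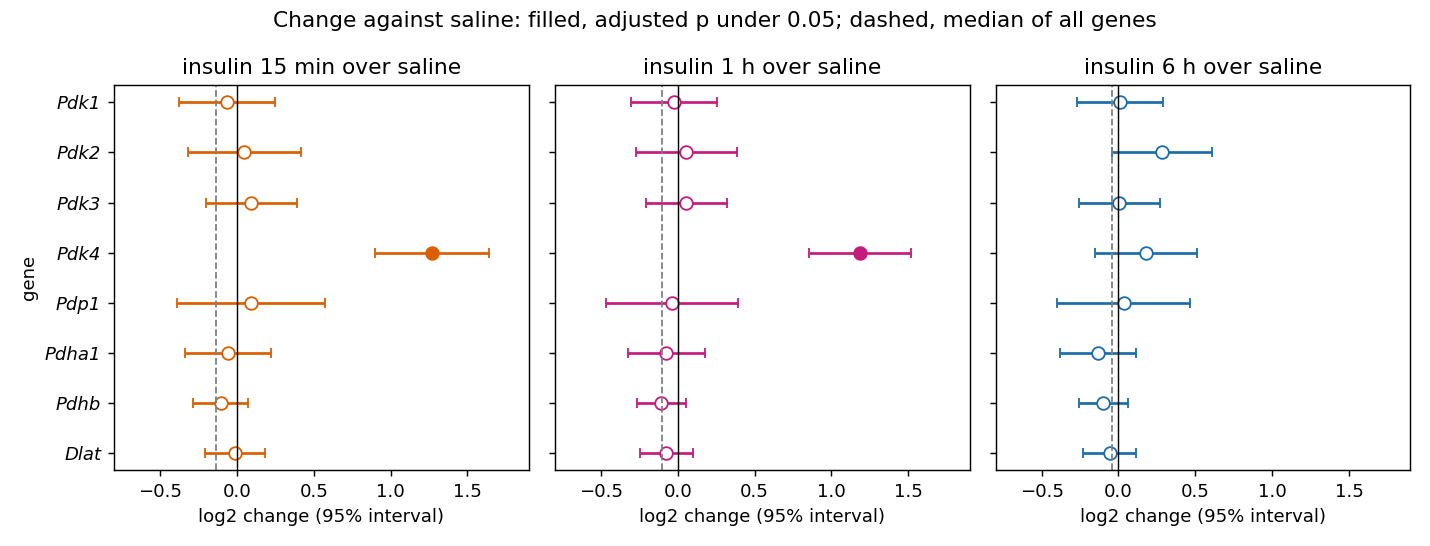
Log2 change against saline (x axis, points) with 95% intervals (bars) for the 8 genes (y axis) at 15 min, 1 h and 6 h. Filled points passed an adjusted p of 0.05 and the dashed line is the median change of all genes. Only the Pdk4 points at 15 min (1.27) and 1 h (1.18) are filled.

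The phosphatase and the subunits of the complex gave no call. Pdp1, the catalytic subunit of a phosphatase that reactivates the complex, averaged 5.48 ± 0.20 log2 with saline, 5.57 ± 0.22 at 15 min, 5.44 ± 0.27 at 1 h and 5.51 ± 0.34 at 6 h (SD, n = 2 at 15 min and 3 otherwise). Its groups overlapped at all times, and its 15 min interval allows 0.762 to 1.49 times the saline signal.

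Pdha1, the alpha subunit on which the kinases act, had log2 signals of 3.19 and 3.18 at 15 min and of 3.15, 3.16 and 3.19 at 1 h, against 3.24, 3.23 and 3.25 with saline. Pdhb, the beta subunit, had 2.51 and 2.52 at 15 min and 2.49, 2.48 and 2.58 at 1 h, against 2.61, 2.65 and 2.60 with saline. Both lay below saline without overlap at these times, as did 31.1% of all genes at 15 min and 21.5% at 1 h. The Pdha1 changes were -0.06 log2 at 15 min and -0.08 at 1 h, and those of Pdhb were -0.11 at each, close to or above the median change of all genes. With library medians over shared genes made equal, the signs turned, to 0.11 and 0.06 for Pdha1 and to 0.06 and 0.03 for Pdhb. No adjusted p of these subunits was below 0.52 by limma against saline at any time.

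Dlat, the acetyltransferase that forms the core of the complex, averaged 1.55 ± 0.06 log2 with saline, 1.54 ± 0.03 at 15 min, 1.48 ± 0.03 at 1 h and 1.49 ± 0.14 at 6 h (SD, n = 2 at 15 min and 3 otherwise). Every insulin group overlapped saline. Pdha1 shares its locus with Map3k15, whose log2 signal ran from -5.22 to -4.34. Whether counting used strand is not given in the sources used here, so reads of the pair may not have been separated.

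At 6 h the subunits depended on replicate 2. Pdha1 had 3.29, 2.79 and 3.25 log2 and Pdhb 2.63, 2.38 and 2.55, replicate 2 being the lowest of each. That library held the lowest of 11 values for 5 of the 8 members (Pdk1, Pdp1, Pdha1, Pdhb and Dlat) and the highest for Pdk2. Without it the 6 h changes against saline were 0.03 log2 for Pdha1, -0.03 for Pdhb and 0.02 for Dlat, in place of -0.13, -0.10 and -0.06. For Pdk1, Pdk3 and Pdp1 they were 0.12, 0.02 and 0.20, in place of 0.01, 0.01 and 0.03. Its summed signal of 9 choroid plexus genes was 1.48, the lowest of any library, and the part of this in the member values was not tested.

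The members also varied between libraries of the same group, and this variation was shared among some of them. After each library's value was set relative to its own group mean, Pdk4 and Pdk1 correlated at r = 0.90 over 11 libraries and at 0.87 over the 10 without 6 h replicate 2. For Pdk4 and Pdk3 the values were 0.81 and 0.88. In replicate 3 of all 4 groups, Pdk1, Pdk3 and Pdk4 were each at the top of their group. Over 25771 genes, replicate 3 held the highest of 11 values in 18.4% with saline, 6.05% at 15 min, 5.02% at 1 h and 13.6% at 6 h. How common such correlations and orders are among all genes was not counted, so they are not shown to be particular to these kinases. Against Pdp1, Pdk4 correlated at -0.34 over all 11 libraries and at -0.91 over 10, so that value differed widely with and without 6 h replicate 2. These are descriptions over few libraries that share 4 group means, and the pair of 15 min libraries is symmetric about its mean by construction.

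**Figure D3:**
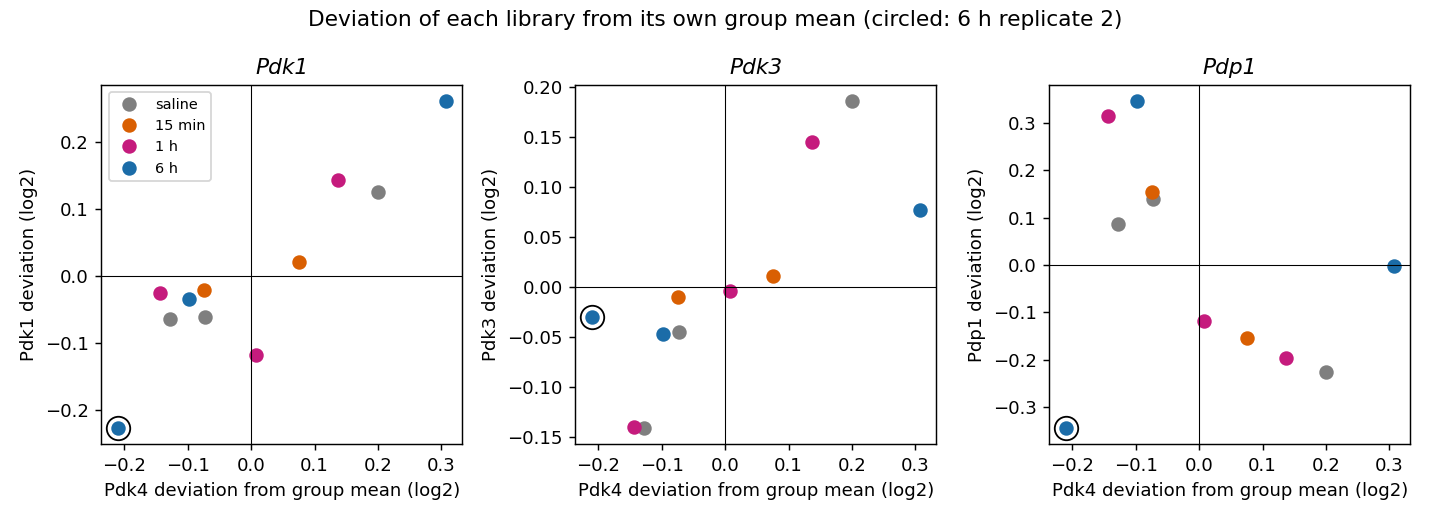
Deviation of each library from its own group mean for Pdk1, Pdk3 and Pdp1 (y axes, log2) against that of Pdk4 (x axis, log2), coloured by group, with 6 h replicate 2 circled. Pdk1 and Pdk3 run upwards with Pdk4 (r = 0.90 and 0.81), and Pdp1 runs downwards apart from the circled library.

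For Pdk2 the sign turned on that library, with r = -0.33 with Pdk4 and 0.48 without 6 h replicate 2. Among the subunits, Pdha1 correlated with Pdhb at 0.90 and with Dlat at 0.88, and Pdhb with Dlat at 0.81. Without 6 h replicate 2 those values were 0.64, 0.66 and 0.27. The correlation of Pdk2 with Pdha1, -0.94, was -0.31 without that library.

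Over all 11 libraries, group differences included, the named genes with the pattern most like that of Pdk4 among 25770 others were Fbxo30 (Pearson r = 0.974), Lats2 (0.974), Cggbp1 (0.965), Nfya (0.956), Spty2d1 (0.952), Mcl1 (0.947), Klf4 (0.945) and Nr4a2 (0.943). They were picked for their pattern, so their changes support nothing further. Most had smaller log2 changes than Pdk4: Fbxo30, an F-box protein, was 0.39 log2 above saline at 15 min and 0.36 at 1 h, and Mcl1, a survival protein of the BCL family, was 0.21 and 0.20 above. Nfya encodes a subunit of the factor that binds CCAAT boxes, and was 0.35 log2 above saline at 15 min and 0.39 at 1 h (adjusted p = 0.20 and 0.099 by limma). Klf4 and Nr4a2, transcription factors of the immediate early response, had larger ones than these. Klf4 was 1.91 log2 above saline at 15 min and 1.94 at 1 h, and Nr4a2 was 0.86 and 1.08 above. Among the members, the next highest r with Pdk4 was 0.52, for Pdk3.

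The genes beside Pdk4 on chromosome 6 were Asb4, 50329 bases away, Pon2, Dync1i1 and Slc25a13. None was called at any time against saline, and the smallest adjusted p was 0.065 by limma, for Dync1i1, a dynein chain that was 0.45 log2 below saline at 1 h. Slc25a13 was 0.60 log2 above saline at 15 min without overlap, and 0.38 above at 1 h with overlap (adjusted p = 0.29 and 0.44 by limma). Pon2 was 0.18 and 0.17 log2 above at these times without overlap, beside 6.96% and 6.27% of all genes. At 6 h both overlapped saline. Asb4 overlapped saline at every time.

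Of 54 further genes in 6 lists drawn up around the complex, all were tested and none was called in any comparison. At an unadjusted p under 0.05 there were 5 at 15 min, 13 at 1 h and 8 at 6 h, where 15.1%, 15.7% and 6.98% of all genes had such a p. Groups that did not overlap with saline numbered 7 higher and 21 lower of 54 at 15 min, where 6.96% of all genes were higher and 31.1% lower in this way. At 1 h there were 4 higher and 19 lower, beside 6.27% and 21.5% of all genes. At 6 h there were 2 higher and 12 lower, beside 4.31% and 8.78%. The median change over the 54 genes was -0.10 log2 at 15 min, -0.09 at 1 h and -0.04 at 6 h, against -0.14, -0.11 and -0.04 over all genes.

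**Figure D4:**
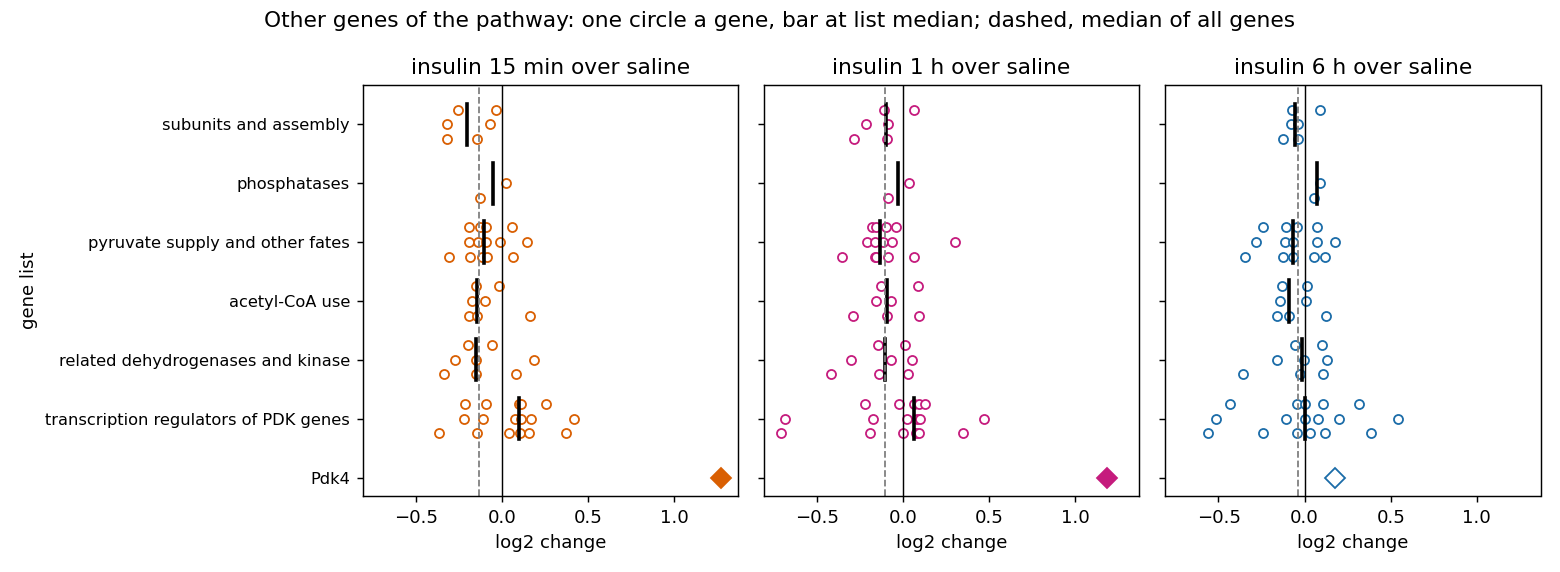
Log2 change against saline (x axis) of the 54 other genes (circles) in 6 lists (y axis), with each list's median as a bar, the median of all genes as a dashed line and Pdk4 as a diamond, filled where called. At 15 min and 1 h the diamond (1.27 and 1.18) lies to the right of every circle, the highest of which are at 0.42 and 0.47.

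Among further subunits and the enzymes that attach their lipoyl groups (6 genes), the smallest p belonged to Lias, the lipoyl synthase. It had log2 signals of -0.09 and -0.18 at 15 min, against 0.22, 0.23 and 0.11 with saline, a change of -0.32 (adjusted p = 0.18 by limma). At 1 h the change was -0.29 (adjusted p = 0.15). Both groups lay below saline, and the 6 h values overlapped it. Of the phosphatase genes beside Pdp1, the catalytic Pdp2 changed by 0.02 log2 at 15 min and the regulatory Pdpr by -0.13.

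Genes that supply pyruvate or send it elsewhere (14) had medians of -0.11 log2 at 15 min, -0.14 at 1 h and -0.07 at 6 h. The mitochondrial carrier subunits Mpc1 and Mpc2 were at -0.12 and -0.16 log2 at 1 h. Mpc1 was at 0.06 log2 at 15 min and at -0.28 at 6 h (adjusted p = 0.71 by limma at 6 h), and Mpc2 was at -0.09 and -0.11. Gpt2, which interconverts pyruvate and alanine in mitochondria, had 0.83, 0.87 and 0.71 log2 at 1 h, against 0.54, 0.45 and 0.52 with saline. It lay above saline without overlap at 15 min and 6 h as well, and at 1 h it was 0.30 log2 higher with an adjusted p of 0.097 by limma. It was called with library medians over shared genes made equal (adjusted p = 0.048). Among genes that use acetyl-CoA or make it by other routes (7), the smallest p was that of Acss2, the acetate-activating enzyme, at -0.29 log2 at 1 h (adjusted p = 0.15).

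Related dehydrogenase complexes and their own kinase (8 genes) had medians of -0.15 log2 at 15 min and -0.11 at 1 h. Bckdk, the kinase that switches off the branched-chain complex as the Pdk enzymes switch off pyruvate dehydrogenase, had 1.33 and 1.13 log2 at 15 min, against 1.61, 1.65 and 1.46 with saline. Its change was -0.34 log2 at 15 min (adjusted p = 0.17 by limma) and -0.31 at 1 h (adjusted p = 0.13), so its values lay on the other side of saline from those of Pdk4, without a call.

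The regulators known to act on PDK genes in other tissues (17 genes) had medians of 0.10 log2 at 15 min, 0.06 at 1 h and 0.00 at 6 h. None was called. Ppargc1a, a coactivator of PPARs and other nuclear receptors that induces Pdk4 in muscle, had the smallest p. It had -0.77, -0.59 and -0.25 log2 at 1 h, against 0.11, 0.00 and 0.41 with saline, a change of -0.71 (95% interval -1.04 to -0.38, adjusted p = 0.063 by limma). It lay below saline at 15 min and 6 h too, by 0.36 and 0.52 log2, and the groups did not overlap at any time. At 1 h it was called when the lowest 60% of rows were left out (adjusted p = 0.049), and also when 1 h replicate 3 was left out (0.041). Of the FOXO genes, Foxo1 changed by 0.37 log2 at 15 min and 0.02 at 1 h, and Foxo3 by 0.10 and 0.09. Nr3c1, the glucocorticoid receptor, changed by -0.14 and -0.23 log2, and Ppara by 0.11 and 0.34. Rxra was 0.26 and 0.47 log2 above saline at 15 min and 1 h, without overlap (adjusted p = 0.43 and 0.12 by limma). Nr3c2 changed by -0.21 and -0.69 log2 and overlapped saline (adjusted p = 0.70 and 0.16 by limma). These are levels of the regulators' own transcripts, and their activity was not measured.

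Markers of cell types that could carry part of the Pdk4 signal were read beside it. The summed signal of 10 astrocyte genes lay between 162.9 and 174.7 with saline, between 168.3 and 172.7 at 15 min, between 165.2 and 183.2 at 1 h and between 157.1 and 175.9 at 6 h, overlapping throughout. That of 10 endothelial genes lay between 11.8 and 17.9 with saline, between 9.24 and 11.4 at 15 min, between 10.2 and 11.1 at 1 h and between 11.4 and 14.6 at 6 h, so it was lower at 15 min and 1 h without overlap. Over 11 libraries, group differences included, its log2 sum correlated with Pdk4 at r = -0.79. Pericyte and smooth muscle genes (9) summed to between 12.0 and 12.7 with saline, and were lower at every time without overlap (between 8.76 and 9.81 at 15 min, 9.01 and 11.3 at 1 h, 9.12 and 11.1 at 6 h). Such sums follow the genes of highest signal, here Aldoc for astrocytes, Cldn5 for endothelium and Vtn for pericytes. No listed astrocyte, endothelial or pericyte gene was called against saline at any time. At 15 min Tek, Kdr, Slco1a4 and Ly6c1 lay below saline without overlap, and the other endothelial genes overlapped it. Of the astrocyte genes, Aldh1l1 and S100b lay below saline without overlap at 15 min, and the others overlapped it. Of all genes, 31.1% at 15 min, 21.5% at 1 h and 8.78% at 6 h lay below saline without overlap. The microglial marker P2ry12, too low to be kept for testing, lay between -12.01 and -9.40 log2 over all libraries. Other microglial markers had higher signals. Cx3cr1 lay between -0.25 and 0.26 log2, Csf1r between -0.27 and 0.09, Tmem119 between 0.35 and 0.75, and C1qa between 2.89 and 3.30. Csf1r lay below saline without overlap at 15 min and 1 h, as did Itgam at 15 min and C1qb at 1 h. Tmem119 lay above saline without overlap at 1 h, beside 6.27% of all genes. Cx3cr1 and C1qa overlapped saline at every time. Striatal genes (8) summed to 15.6 to 18.5 at 15 min, against 8.91 to 11.9 with saline, without overlap. Choroid plexus genes (9) ranged widely, between 40.9 and 62.7 with saline, between 28.8 and 135.7 at 15 min, between 3.61 and 90.2 at 1 h and between 1.48 and 24.5 at 6 h, where they lay below saline without overlap. Neuron genes (9) summed to between 150.5 and 150.6 at 15 min, against 151.0 to 161.2 with saline, and overlapped saline later. Sums of ependyma (7) and blood genes (8) lay below saline without overlap at 6 h only. Those of oligodendrocyte, meninges, and dentate and pyramidal neuron genes overlapped saline throughout. The part of any of these markers in the Pdk4 result was not tested.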

How the data were processed

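The deposited series table holds, per gene symbol, log2 signals that the authors had quantile-normalized, as the values themselves show; a cell with no value was treated as missing. Partek 6.7, bcl2fastq and the build GRCm38 are named, without roles, in the submitters' processing notes; how reads were aligned and counted is not given in the sources used here. No read counts can be recovered. Per the labels, a stranded kit for total RNA was used.

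Each column was matched to its sample by its description. Rows in the lowest 40% by mean were left out, 27721 rows were tested, and 1950 of them had a missing value. A linear model of 4 groups over 11 libraries was fitted with limma 3.58.1 in R 4.3.3 (mean-variance trend, two-sided, Benjamini-Hochberg at 0.05 over all rows of a comparison), checked on simulated data. All insulin libraries against saline used a 2-group fit. Marker sums add 2 raised to each value; that of the microglial list, which holds a gene not reported here, is left out. Coordinates and promoters are RefSeq's, GRCm38.p6, and exon numbers are from GENCODE. The genes, lists and comparisons were chosen with earlier results of these data known. Named genes were the 8 members, the smallest p of each of 6 lists where none passed, and the 8 genes most like Pdk4, with predicted names passed over. Others were named to describe their list. The alternatives changed filter, normalization, offset, variance model, rows, libraries and block.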

Additional observations from a re-analysis of the deposited data

How the results depend on the processing

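Beside the 11 fits that each left out 1 library, 10 alternatives were run. Depth is unknown. Pdk4 at 1 h stayed called, at 1.12 to 1.28 log2 with a library left out. At 15 min it was 1.20 to 1.37 log2 in those fits, and 1.27 without rows that move with Rn18s-rs5 and with only the groups compared, which lost the call; the count of members called was then 0, and 0 to 1 with a library left out. Members called at 6 h against 1 h numbered 1 with medians of shared genes made equal (Pdk4, -1.11 log2). The labels do not say what replicate numbers share. Same-number libraries correlated at -0.06 to 0.24 (12 of 15 pairs positive, 7 over 0.1), and 8 of 11 libraries correlated best with their own number, a hint from the data only, so the numbers were not taken to pair the libraries. The replicate block kept both Pdk4 calls, and all genes called fell to 38 at 15 min, 159 at 1 h and 0 for 6 h against either earlier time and for all insulin times together.

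The count of all genes called at 15 min, 66, was 37 with cyclic loess, 114 with no mean-variance trend, 5 without rows that move with Rn18s-rs5, 1 with only the groups compared and 5 to 103 with a library left out. At 1 h, 243 became 138 with only the groups compared and 42 to 477 with a library left out. For 6 h against 15 min, 2 became 6 with no trend, 1 without the Rn18s-rs5 rows, 0 with only the groups compared and 0 to 3 with a library left out. For 6 h against 1 h, 3 became 0 with only the groups compared and 0 to 4 with a library left out. For all insulin times, 33 became 11 with no filter, 56 with the lowest 60% left out, 51 with an offset of 0.1, 0 with no trend, 0 without the Rn18s-rs5 rows and 0 to 63 with a library left out.

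Signs turned for changes that were not called. With cyclic loess they became 0.019 log2 for Pdk1 and 0.042 for Dlat at 15 min, and 0.040 for Pdk1 at 1 h. With medians made equal they became 0.11 (Pdk1), 0.11 (Pdha1), 0.065 (Pdhb), 0.16 (Dlat) and 0.045 (Pdpr) at 15 min, and 0.11 (Pdk1), 0.10 (Pdp1), 0.065 (Pdha1), 0.034 (Pdhb), 0.066 (Dlat) and 0.050 (Pdpr) at 1 h. With a library left out, the 15 min range was -0.094 to 0.00066 for Pdk1, -0.064 to 0.24 for Pdp1 and -0.049 to 0.0092 for Dlat. The 1 h range was -0.097 to 0.038 for Pdk1, -0.016 to 0.15 for Pdk3 and -0.19 to 0.060 for Pdp1. The 6 h range was -0.12 to 0.12 for Pdk1, -0.065 to 0.099 for Pdk3, -0.14 to 0.20 for Pdp1, -0.22 to 0.026 for Pdha1 and -0.12 to 0.020 for Dlat. Making medians equal moves the change of every member at a given time by the same amount. It took the median change over all genes from -0.14 to 0.036 log2 at 15 min and from -0.11 to 0.034 at 1 h. The cause of the other turns was not tested.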
